A study of Mus musculus with 12 samples.

Results

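Contractile actin bundles and the focal adhesions that anchor them were followed through 38 genes in mouse lens epithelial cells (LCs) at 0 h and 24 h after cataract surgery. The 38 genes were taken by symbol, by a rule that names no measured value, as a list of smooth muscle actins, actin cross-linkers, calponins, myosin subunits and their kinases, tropomyosins, adhesion plaque proteins, LIM proteins and the transcription factor gene Srf. All 38 were found among the 45859 genes listed for each library. Values are FPKM (fragments scaled to the length of the gene and to the number of mapped fragments in the library). A mean of at least 0.5 FPKM was needed for a test, and 34 of the 38 reached it in at least 1 comparison. The smooth muscle and skeletal actin genes Actg2 and Acta1, the smooth muscle calponin gene Cnn1 and the leiomodin gene Lmod1 did not, with Cnn1 at 0.82 FPKM and Lmod1 at 0.57 FPKM in their highest library.

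The study asked how LCs left on the lens capsule respond to lens fiber removal when they lack β8 integrin, a receptor subunit that can release active TGF-β from its latent complex. RNA was measured in 12 libraries, 3 for each of 4 groups, and each library was made from 5 capsules. The WT groups were C57BL/6 mice. The β8ITG-cKO groups, labelled as a mix of C57BL/6 and 129S1/Sv, carried a floxed exon 4 of Itgb8 that is removed by the MLR10-Cre transgene. This Cre acts early in lens development and is not limited to a subset of LCs. The methods also mention a backcross to C57BL/6<har> over many generations. All mice were adults of 2 months, of both sexes, and all underwent surgery in which the whole fiber mass was taken out through a corneal incision. LCs were collected at once (0 h) or at 24 h post cataract surgery (PCS). The WT mice were not described as carrying the floxed allele or Cre, so genotype, strain background and Cre cannot be told apart. Nothing states whether animals were shared between libraries, and the mix of sexes in each library is not given in the sources used here.

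Contraction in non-muscle cells runs on actin filaments that are stabilised by tropomyosin, cross-linked by α-actinin and filamin, and pulled by myosin II once its light chain is phosphorylated. At focal adhesions, talin, kindlin, integrin-linked kinase and vinculin tie these filaments to integrins. Many of the genes involved are targets of serum response factor (SRF), and α-smooth muscle actin, the product of Acta2, is the usual marker of LCs that turn into myofibroblasts after surgery.

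Itgb8, the gene targeted, measured 7.26, 10.78 and 8.42 FPKM at 0 h in WT, beside 6.83, 4.58 and 7.31 FPKM in β8ITG-cKO LCs. Its 24 h values were 9.08, 8.38 and 9.58 FPKM for WT, beside 9.28, 11.83 and 10.28 FPKM for β8ITG-cKO. The genotypes overlapped at both times, and neither difference passed the test (limma-trend with Benjamini-Hochberg adjustment, log2 difference of -0.45 ± 0.19 (SE), adjusted p = 0.209 at 0 h, and 0.19 ± 0.14, adjusted p = 0.486 at 24 h). Over time Itgb8 rose in β8ITG-cKO LCs (0.68 ± 0.17, adjusted p = 0.0132), while its change in WT did not pass (0.04 ± 0.17, adjusted p = 0.873). The difference between these changes did not pass either (0.64 ± 0.24, adjusted p = 0.131). These values sum reads over the whole gene, so a deletion of exon 4 alone is not checked by them.

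The lens epithelial markers Pax6, Foxe3 and Cdh1 were present in every library. Pax6 lay between 59.9 and 93.49 FPKM over all 12, Foxe3 between 25.46 and 172.17 FPKM, and Cdh1 between 37.66 and 98.31 FPKM. Of 5 such markers, 1 rose and 2 fell over time in WT, 4 fell in β8ITG-cKO LCs, and 3 were higher in β8ITG-cKO LCs at 0 h. Over all genes, 20.9% rose and 8.81% fell in WT, 10.7% fell in β8ITG-cKO LCs, and 4.18% were higher there at 0 h. Photoreceptor markers stood apart between libraries. The summed FPKM of 10 such genes was 354, 1190 and 145 in the WT 0 h libraries and 77.7, 136 and 141 in WT 24 h. It was 342, 186 and 277 in β8ITG-cKO 0 h, and 1030, 878 and 1020 in β8ITG-cKO 24 h. None of the 10 was listed at 0 in any library. WT 0 h replicate 2 also stood apart through Cryaa, the α-crystallin gene, which it listed at 0 against at least 8385.01 FPKM in each other library. A value of exactly 0 can be a failed estimate, and it is given below as listed.

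The start sites of the members were read from RefSeq (GRCm38.p6), as windows from 250 bases before to 50 bases after the start, and 34 of the 38 had such a window (none was found for Actg2, Mylk2, Tagln and Pxn). The windows were searched on both strands for the CArG box, the sequence that SRF binds, and for GGAATG, a site of the TEAD factors that act in the Hippo pathway. The CArG box was taken strictly, as CC, then 6 letters of A or T, then GG. Boxes with another letter were not searched for, so a window without a match can still hold an SRF site. A CArG box lay in 10 of the 34 windows (29.4%), against 488 of 27025 genes (1.81%). GGAATG lay in 12 of the 34 (35.3%), against 4481 of 27025 (16.6%). No match of the one overlapped a match of the other in a member's window. Of the 10 members with a CArG box, 7 rose in WT LCs over 24 h (Fhl2, Myl9, Cnn2, Vcl, Fermt2, Lima1 and Srf), while Myl6 and Fhl1 did not pass the test and Acta1 was not tested. Over the whole list 25 of 34 tested rose, and over all genes 20.9%, and the members with a box were near the rate of the list. The rises of Myl9, Fermt2 and Lima1 were lost with most libraries left out. A match describes letters in a window and does not show that a factor binds there. The stretches below show the CArG box of 6 members that rose in WT, and the GGAATG of Acta2, the member with the highest mean in WT 24 h, read 5′ to 3′ on the strand of the gene. CArG boxes are in capitals, and so is GGAATG in the Vcl and Acta2 stretches. The Vcl stretch runs from 250 to 101 bases before the start at chr14:20929148-20929297 on the plus strand and holds both motifs. That of Acta2, at chr19:34255502-34255531 on the minus strand, lies 158 to 129 bases before the start and holds GGAATG. The Acta2 window had no strict match to the CArG box. Cnn2 (chr10:79988534-79988563, plus strand), Myl9 (chr2:156775293-156775322, plus), Lima1 (chr15:99820177-99820206, minus) and Fhl2 (chr1:43163973-43164002, minus) are shown with 10 bases on each side of the box. Fhl2 has another box, not shown, in the window of a second start (chr1:43196838-43196867). Srf has 2 boxes that follow closely on each other, at chr17:46556225-46556254 and chr17:46556205-46556234 on the minus strand.
Vcl: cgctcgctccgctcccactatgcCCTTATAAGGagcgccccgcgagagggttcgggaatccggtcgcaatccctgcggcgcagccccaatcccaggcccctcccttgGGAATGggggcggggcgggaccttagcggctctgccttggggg
Acta2: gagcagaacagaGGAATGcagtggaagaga
Cnn2: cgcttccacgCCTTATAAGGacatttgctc
Myl9: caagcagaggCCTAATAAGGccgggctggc
Lima1: ctcactttgtCCTTATAAGGctatcctgtt
Fhl2: gcgcgtgtgtCCTTATATGGtcaaatgact
Srf, first box: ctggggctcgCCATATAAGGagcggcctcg
Srf, second box: agcggcctcgCCATAAAAGGaaacattgta
Vcl, Cnn2 and Lima1 have the same letters in the box, and the others differ from them within the A and T stretch. The Lima1, Fhl2, Srf and Acta2 stretches lie within the bounds that the deposited annotation gives their genes, ahead of a start site further in.

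From 0 h to 24 h PCS, 25 of the 34 members tested rose in WT LCs and none fell, where 20.9% of the 15146 genes tested rose and 8.81% fell. The members' median change was 1.41 on the log2(FPKM + 1) scale, against 0.16 for all genes. Single members ranged from -0.58 (Mylk, not called) to 4.30 (Tagln). In 28 of the 34, all 3 WT 24 h libraries lay above all 3 WT 0 h libraries, as they did for 31.3% of all genes. With the criteria of the study added (a change of more than 2-fold that also exceeds 2 FPKM, with a mean of 2 FPKM or more at either time), 23 members rose, where 10.3% of all genes did. In these bulk samples, more cells of a type and more RNA per cell cannot be told apart.

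In β8ITG-cKO LCs over the same time, 28 of the 33 members tested rose and 2 fell (Cnn3 and Lima1), where 35.4% of 15237 genes rose and 10.7% fell. Their median change was 1.11, against 0.23 for all genes. In 28 members the 24 h libraries all lay above the 0 h libraries (42.9% of all genes) and in 2 all below (14.0%). With the study's criteria 17 rose, where 11.3% of all genes did. The median of all genes lay above 0 in both genotypes. Once FPKM were rescaled so that the median gene of each library matched, 23 members rose in WT (median 1.15, all genes -0.05), and 22 rose and 3 fell in β8ITG-cKO (median 0.88). Without WT 0 h replicate 2, the library apart in Cryaa and photoreceptor genes, 22 members rose in WT. The WT rises of Fermt2, Ilk, Fhl2, Pdlim5, Myl9 and Lima1 were each lost with at least 1 of the 6 libraries left out. Lima1 was called in 0 of these 6 fits (adjusted p up to 0.139), Fermt2 and Myl9 in 1 each (up to 0.0985 and 0.111) and Pdlim5 in 2 (up to 0.0905).

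The order of levels changed with these rises. At 0 h in WT, the light chain gene Myl6 (209 FPKM) and the calponin gene Cnn3 (199 FPKM) were the highest of the 34, and Acta2 came ninth. At 24 h Acta2 (565 FPKM) came first, ahead of Myh9 (404 FPKM), Tpm1 (340 FPKM) and Myl6 (337 FPKM), although the 3 WT libraries spread so widely in Acta2 that these neighbours in the order overlapped. The 34 members together made up 0.253%, 0.209% and 0.262% of all FPKM in the WT 0 h libraries and 0.750%, 1.03% and 0.452% in WT 24 h. In β8ITG-cKO LCs they made up 0.187%, 0.189% and 0.191% at 0 h and 0.474%, 0.541% and 0.424% at 24 h.

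**Figure D1:**
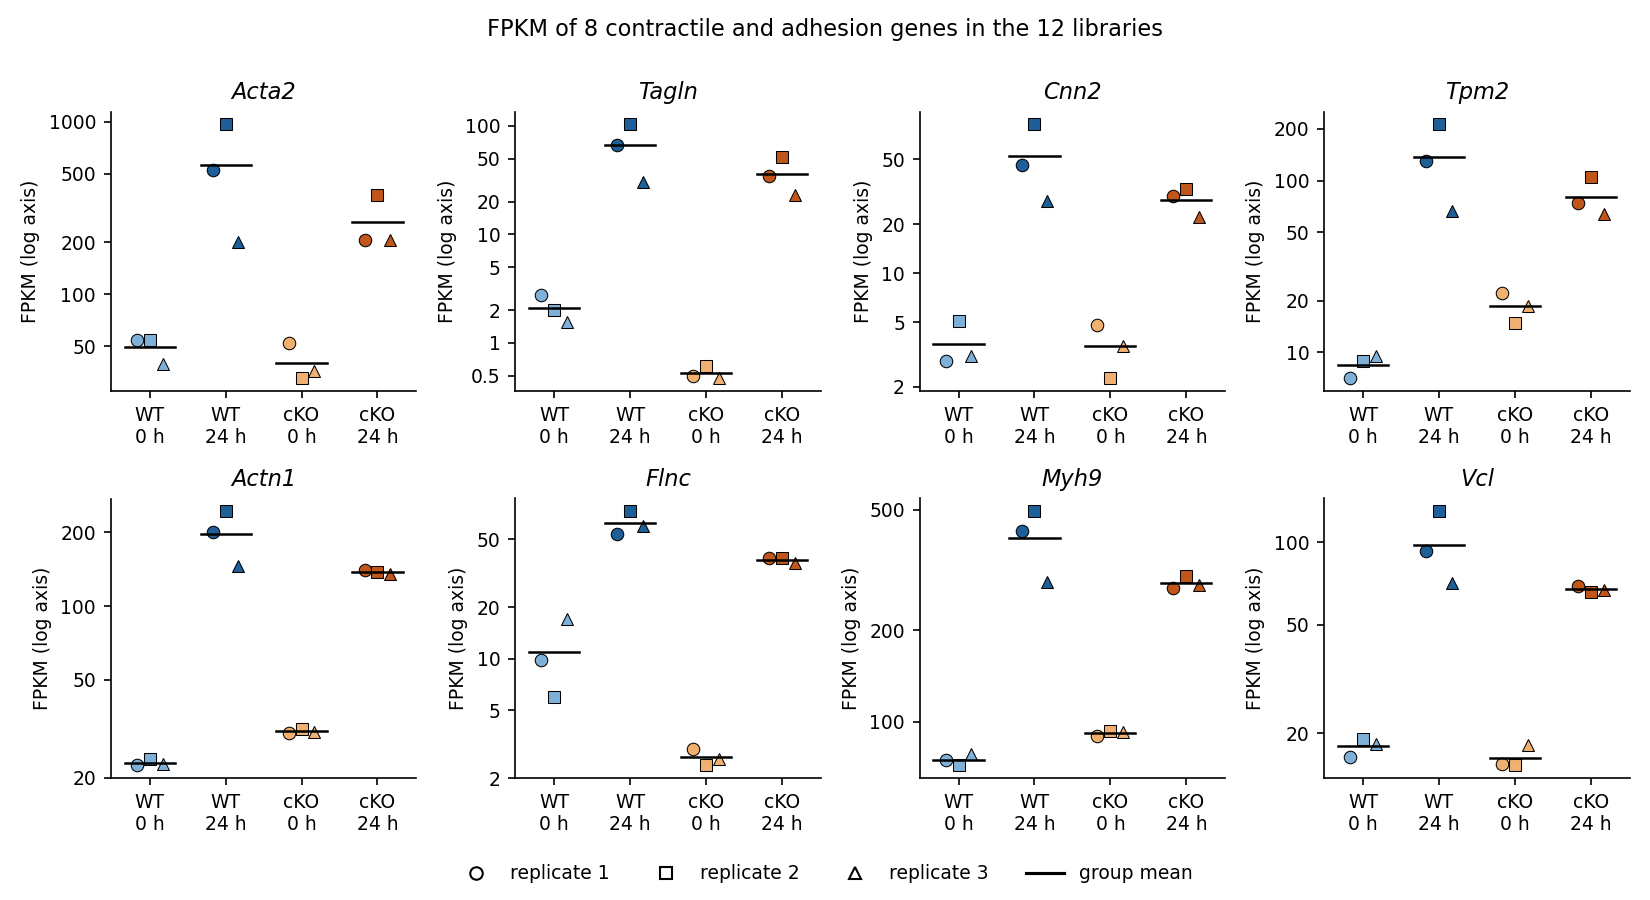
FPKM (log axis) of 8 members in each of the 12 libraries, by group; markers are the 3 replicates and lines their means. All 8 genes lay higher at 24 h than at 0 h in every library of both genotypes, and WT 24 h replicate 3 was the lowest WT 24 h library in all but Flnc.

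Among the actins, Acta2 (chr19:34240336-34255585) was at 54.25, 54.65 and 39.4 FPKM in WT 0 h, then 525.7, 968.39 and 200.72 FPKM in WT 24 h. In β8ITG-cKO LCs it was at 52.36, 32.6 and 35.99 at 0 h, then 207.23, 378.6 and 206.56 FPKM at 24 h. Both genotypes moved upward in every library with no overlap between times, but the WT 24 h libraries differed among themselves by far more than the 0 h libraries did. Acta2 rose by 3.23 ± 0.50 (SE) on the log2 scale in WT (11.4-fold in mean FPKM, adjusted p = 0.00363) and by 2.65 ± 0.27 in β8ITG-cKO LCs (6.55-fold, adjusted p = 0.000208). Acta1 reached 1.45 FPKM in 1 WT 24 h library and Actg2 was listed at 0 in 10 of the 12 libraries. These actins share nearly identical coding sequence, so how reads were split among them is uncertain.

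All 4 cross-linkers rose in each genotype, beside 20.9% of all genes in WT and 35.4% in β8ITG-cKO LCs. Actn1 (chr12:80167542-80260485), the α-actinin that bundles filaments in focal adhesions and stress fibers, went from 22.45, 23.92 and 22.73 FPKM to 199.94, 243.1 and 145.41 FPKM in WT. It went from 30.52, 31.65 and 30.6 FPKM to 140.23, 137.19 and 134.83 FPKM in β8ITG-cKO LCs. The 0 h and 24 h libraries stood far apart in both, by 3.01 ± 0.20 in WT (adjusted p = 0.000146) and 2.12 ± 0.08 in β8ITG-cKO (adjusted p = 3.73e-06). Flnc (chr6:29433153-29461888), a filamin best known from muscle, was at 9.87, 5.95 and 17.05 FPKM in WT 0 h, then 54.07, 73.21 and 60.33 FPKM in WT 24 h. In β8ITG-cKO LCs it was at 2.96, 2.37 and 2.6 at 0 h, then 38.79, 38.81 and 36.5 FPKM at 24 h. It started lower in the β8ITG-cKO and rose there by 3.42 ± 0.10 (14.4-fold, adjusted p = 1.85e-06), beside 2.51 ± 0.32 in WT (adjusted p = 0.0018). Flna, the widely expressed filamin, rose by 2.13 (adjusted p = 0.000736) and 1.47 (adjusted p = 5.86e-05), and Actn4, the other non-muscle α-actinin, by 1.13 (adjusted p = 0.0036) and 0.94 (adjusted p = 0.000166).

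The calponin family held the largest rise on the log2(FPKM + 1) scale. By fold of mean FPKM in WT, Mylk2 of the myosin kinases, very low at 0 h, had a larger one (50.8-fold). Tagln, which encodes the actin-binding protein SM22α and was placed in a merged annotation block with its neighbours, was at 2.77, 1.99 and 1.56 FPKM in WT 0 h, then 66.61, 103.56 and 30.23 FPKM in WT 24 h. In β8ITG-cKO LCs it was at 0.49, 0.61 and 0.47 at 0 h, then 34.23, 51.34 and 23.04 FPKM at 24 h. The times did not overlap in either genotype, and the 3 β8ITG-cKO 0 h libraries were the lowest of all 12. The rise was 4.30 ± 0.40 in WT (31.7-fold, adjusted p = 0.000537) and 4.54 ± 0.25 in β8ITG-cKO LCs (69.2-fold, adjusted p = 1.67e-05). Cnn2, a calponin of non-muscle cells, went from 2.88, 5.07 and 3.1 FPKM to 46.18, 82.36 and 27.9 FPKM in WT, and from 4.82, 2.25 and 3.57 FPKM to 29.97, 32.93 and 22.07 FPKM in β8ITG-cKO LCs. No library of 1 time overlapped the other (3.40 ± 0.37, adjusted p = 0.000911 in WT, and 2.71 ± 0.23, adjusted p = 9.52e-05 in β8ITG-cKO). Tagln2, a relative of Tagln found in many cell types, rose by 3.33 ± 0.38 (adjusted p = 0.0011) and 2.70 (adjusted p = 3.08e-05). Cnn3, the acidic calponin that was abundant at 0 h, differed from its relatives: its change in WT was 0.19 (adjusted p = 0.449), and it fell by 0.48 ± 0.12 in β8ITG-cKO LCs (adjusted p = 0.0112).

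Of the myosin subunits and kinases, 3 of 6 tested rose in WT (20.9% of all genes) and 3 of 5 in β8ITG-cKO LCs (35.4% of all genes). Myh9, the heavy chain of non-muscle myosin IIA, was at 74.65, 71.74 and 78.51 FPKM in WT 0 h, then 426.13, 494.73 and 289.73 FPKM in WT 24 h. It was at 89.57, 92.94 and 92.75 FPKM in β8ITG-cKO 0 h, then 277.01, 303 and 282.33 FPKM in β8ITG-cKO 24 h. The times did not overlap, and the rises were 2.38 ± 0.21 (adjusted p = 0.000496) and 1.64 ± 0.09 (adjusted p = 1.73e-05). Myh10, the heavy chain of myosin IIB, changed by 0.04 in WT (adjusted p = 0.898) and -0.12 in β8ITG-cKO LCs (adjusted p = 0.464), and it fell there on rescaling (-0.41, adjusted p = 0.0174). Myl9, the regulatory light chain whose phosphorylation starts contraction, went from 9.27, 6.04 and 4.46 FPKM to 41.94, 61.83 and 9.57 FPKM in WT. In β8ITG-cKO LCs it went from 9.83, 6.63 and 5.64 FPKM to 19.48, 27.42 and 18.11 FPKM. WT 24 h replicate 3 lay barely above the highest WT 0 h library, and the WT rise was 2.06 ± 0.60 (adjusted p = 0.0371), while that of β8ITG-cKO LCs was 1.45 ± 0.21 (adjusted p = 0.00125). The essential light chain gene Myl6 changed by 0.64 (adjusted p = 0.0975) and 0.13 (adjusted p = 0.383).

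The kinases that phosphorylate the light chain were low. Mylk (chr16:34745199-35002436), the myosin light chain kinase of smooth muscle and non-muscle cells, was at 5.02, 3.38 and 1.08 FPKM in WT 0 h, then 1.37, 1.31 and 1.97 FPKM in WT 24 h. In β8ITG-cKO LCs it was at 1.13, 1.04 and 1.29 at 0 h, then 4.33, 3.06 and 3.41 FPKM at 24 h. The WT 0 h libraries ran from below to above those of WT 24 h, whereas the β8ITG-cKO times were clearly apart. Its change was -0.58 ± 0.37 in WT (adjusted p = 0.259), while in β8ITG-cKO LCs it rose by 1.09 ± 0.14 (adjusted p = 0.00065). Without WT 0 h replicate 3, the lowest of its group, Mylk fell in WT (-1.02, adjusted p = 0.0266). Mylk2, the kinase of skeletal muscle, was at 0.13, 0 and 0 FPKM in WT 0 h as listed, and at 0.91, 4 and 1.79 FPKM in WT 24 h (1.52 ± 0.33, adjusted p = 0.0129). It was too low for the test over time in β8ITG-cKO LCs.

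The tropomyosins, which run along the actin filament and select which myosins bind it, all 4 rose in each genotype, beside 20.9% of all genes in WT and 35.4% in β8ITG-cKO LCs. Tpm2, whose annotation block is also merged with neighbours, was at 7.05, 8.85 and 9.48 FPKM in WT 0 h, then 129.33, 212.58 and 66.41 FPKM in WT 24 h. It was at 22.15, 14.78 and 18.65 FPKM in β8ITG-cKO 0 h, then 73.72, 104.18 and 63.71 FPKM in β8ITG-cKO 24 h. The genotypes stood apart at 0 h and overlapped at 24 h. Tpm2 rose by 3.71 ± 0.37 in WT (16.1-fold, adjusted p = 0.000734) and by 2.05 ± 0.20 in β8ITG-cKO LCs (4.35-fold, adjusted p = 0.000197). Tpm4 went from 28.59, 30.18 and 26.33 FPKM to 159.33, 211.14 and 85.07 FPKM in WT, and from 27.55, 24.87 and 24.94 FPKM to 103.11, 104.81 and 89.84 FPKM in β8ITG-cKO LCs. Its rises were 2.29 ± 0.30 (adjusted p = 0.00202) and 1.90 ± 0.10 (adjusted p = 1.34e-05), with no overlap between times. Tpm1 rose by 1.60 ± 0.28 (adjusted p = 0.00561) and 0.73 (adjusted p = 0.00556), the latter lost on rescaling, and Tpm3 by 1.46 (adjusted p = 0.00268) in WT and 1.19 in β8ITG-cKO LCs. Caldesmon (Cald1), which restrains myosin on the filament, rose by 1.34 in WT (adjusted p = 0.011). Cofilin (Cfl1), which severs filaments, rose by 1.36 (adjusted p = 0.00257) and 1.39 (adjusted p = 4.67e-05).

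**Figure D2:**
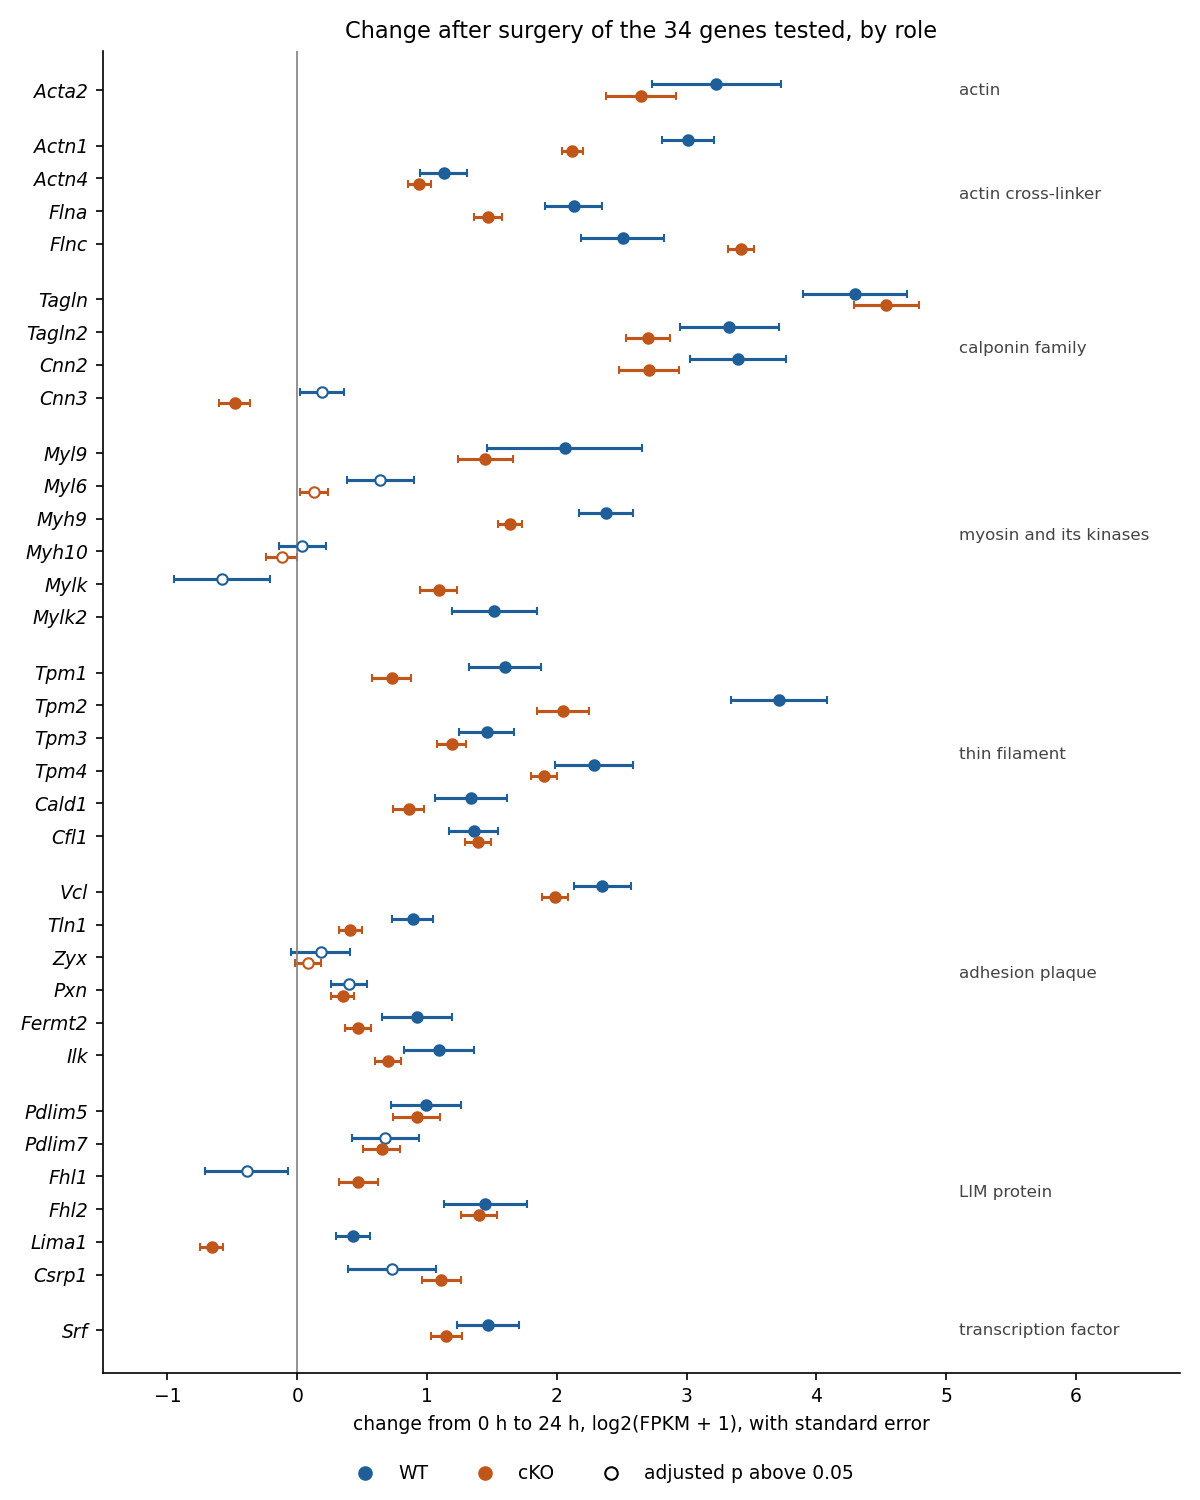
Change from 0 h to 24 h PCS (log2, points with bars of ± 1 SE) for the 34 tested members in WT and β8ITG-cKO LCs, grouped by role; open points did not reach an adjusted p of 0.05. The widest rise was that of Tagln (4.30 in WT and 4.54 in β8ITG-cKO), and Zyx, Myl6 and Myh10 have open points in both.

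In the adhesion plaque, 4 of 6 members rose in WT LCs and 5 of 6 in β8ITG-cKO LCs, beside the same 20.9% and 35.4% of all genes. Vcl (chr14:20929378-21033676), which encodes vinculin, the protein that strengthens the link of talin to actin, was at 16.39, 19.09 and 18.29 FPKM in WT 0 h, then 93.34, 130.01 and 70.95 FPKM in WT 24 h. It was at 15.48, 15.27 and 18.09 FPKM in β8ITG-cKO 0 h, then 69.12, 65.82 and 66.94 FPKM in β8ITG-cKO 24 h. The lowest WT 24 h library lay just above the highest β8ITG-cKO 24 h library. Vcl rose by 2.35 ± 0.22 (adjusted p = 0.000537) and 1.99 ± 0.10 (adjusted p = 9.8e-06). Ilk, the integrin-linked kinase gene, went from 18.91, 20.11 and 14.92 FPKM to 37.77, 57.99 and 27.11 FPKM in WT, and from 16.33, 16.77 and 16.89 FPKM to 25.1, 30.57 and 27.75 FPKM in β8ITG-cKO LCs. Its groups were apart in time in both genotypes, with smaller rises than Vcl (1.09 ± 0.27, adjusted p = 0.0197, and 0.70 ± 0.10, adjusted p = 0.000963). The integrin activators talin (Tln1) and kindlin-2 (Fermt2) rose by 0.89 (adjusted p = 0.00551) and 0.92 (adjusted p = 0.037) in WT and by 0.41 (adjusted p = 0.00796) and 0.47 (adjusted p = 0.00557) in β8ITG-cKO LCs. On rescaling, Fermt2 was lost in both genotypes and Tln1 in β8ITG-cKO LCs. The scaffold gene Pxn rose in β8ITG-cKO LCs only before rescaling (0.35, adjusted p = 0.0151; WT 0.40, adjusted p = 0.0688), and zyxin (Zyx), a sensor of tension on actin, changed by 0.18 (adjusted p = 0.588) and 0.08 (adjusted p = 0.543).

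Among the LIM proteins, 3 of 6 rose in WT (20.9% of all genes), while 5 of 6 rose (35.4%) and 1 fell (10.7%) in β8ITG-cKO LCs. Fhl2, a LIM-only cofactor that joins adhesions and the nucleus, went from 0.09, 0.32 and 0.26 FPKM to 2.67, 3.98 and 1.01 FPKM in WT, and from 0.11, 0.3 and 0.03 FPKM to 1.95, 2.01 and 2.06 FPKM in β8ITG-cKO LCs. Levels were low but the times did not overlap (1.45 ± 0.32, adjusted p = 0.0139, and 1.40 ± 0.14, adjusted p = 0.000203). Pdlim5, which binds α-actinin, went from 10.81, 12.44 and 8.09 FPKM to 19.44, 32.2 and 15.67 FPKM in WT (0.99 ± 0.27, adjusted p = 0.0291). In β8ITG-cKO LCs it went from 8.41, 5.19 and 8.28 FPKM to 15.41, 12.33 and 15.66 FPKM (0.92 ± 0.18, adjusted p = 0.00482). Lima1 (chr15:99778468-99875456), which encodes EPLIN, a protein that bundles actin and slows its turnover, was at 19.68, 19.87 and 18.89 FPKM in WT 0 h, then 23.48, 27.64 and 28.69 FPKM in WT 24 h. It was at 29.98, 28 and 26.72 FPKM in β8ITG-cKO 0 h, then 17.1, 18.07 and 17.39 FPKM in β8ITG-cKO 24 h. The genotypes thus changed places between the times without overlap at either. Lima1 rose by 0.43 ± 0.13 in WT (adjusted p = 0.0464, but 0.17 with adjusted p = 0.357 on rescaling) and fell by 0.66 ± 0.09 in β8ITG-cKO LCs (adjusted p = 0.000754). Of the others, Csrp1, a LIM protein that binds α-actinin, rose in β8ITG-cKO LCs (1.11, adjusted p = 0.00071; WT 0.73, adjusted p = 0.143). Pdlim7 (0.65, adjusted p = 0.00762) and Fhl1 (0.47, adjusted p = 0.031) did so too, but both were lost on rescaling. Fhl1 was also lost without the filter (adjusted p = 0.0686), in 1 fit over all groups (adjusted p = 0.191) and in 4 of 6 fits with a library left out (adjusted p up to 0.0917). In WT their changes were 0.68 (adjusted p = 0.0811) and -0.39 (adjusted p = 0.387).

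Srf was at 4.16, 3.43 and 3.07 FPKM in WT 0 h, then 8.68, 17.08 and 10.27 FPKM in WT 24 h. It was at 3.97, 3.63 and 3.26 FPKM in β8ITG-cKO 0 h, then 10.24, 8.41 and 9.16 FPKM in β8ITG-cKO 24 h. All 24 h libraries of both genotypes lay above all 0 h libraries. Srf rose by 1.47 ± 0.24 (adjusted p = 0.0045) and 1.15 ± 0.12 (adjusted p = 0.000201).

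The genotypes were then compared at 24 h PCS, which asks whether the loss of β8 integrin went with another level of these genes. Of 34 members tested, Mylk was higher and Flnc and Lima1 were lower in β8ITG-cKO than in WT LCs, while 5.64% of 15366 genes were higher and 0.644% lower. The members' median difference was -0.47, against 0.03 for all genes, and the β8ITG-cKO mean was the lower one for 31 of the 34, as for 45.6% of all genes. In 9 members all β8ITG-cKO libraries lay below all WT libraries (9.0% of all genes) and in 1 member above (17.5%). Flnc was 1.64-fold lower in mean FPKM (-0.69 ± 0.15, adjusted p = 0.0333), Lima1 was 1.52-fold lower (-0.57 ± 0.13, adjusted p = 0.0408) and Mylk was 2.32-fold higher (0.85 ± 0.17, adjusted p = 0.0312). On rescaling, Mylk was lost (adjusted p = 0.0599) and Cnn3 was lower (-0.59, adjusted p = 0.0429). In 1 fit over all groups, Flnc (adjusted p = 0.124) and Mylk (0.104) were lost and Cnn3 was lower (-0.53, adjusted p = 0.0367). Flnc (adjusted p = 0.0534) and Mylk (0.083) were also lost without the filter. With each of the 6 libraries left out in turn, Flnc was called 2 times, Lima1 1 time and Mylk 1 time.

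Most members with large rises over time did not pass the test between genotypes at 24 h. Acta2 had a 2.14-fold lower mean in β8ITG-cKO LCs, but the WT library at 200.72 FPKM lay below all β8ITG-cKO libraries (-0.88 ± 0.55, adjusted p = 0.419, with a range of 0.0646 to 0.749 over the alternatives). Tagln (-0.77, adjusted p = 0.398), Flna (-0.45, adjusted p = 0.31) and Tpm1 (-0.71, adjusted p = 0.221) did not pass the test either. Actn1 (-0.48, adjusted p = 0.235), Vcl (-0.49, adjusted p = 0.256) and Cnn3 (-0.53, adjusted p = 0.101) had no overlap between genotypes, yet they did not pass. Mylk2, at 0.87, 0.67 and 0.1 FPKM in β8ITG-cKO 24 h, differed by -0.99 (adjusted p = 0.185). The study listed 11 of the 38 members as lower in β8ITG-cKO LCs on these same samples, which is not independent evidence. Of those 11, 1 was called lower here (median -0.52), beside 1 lower and 1 higher of the 23 tested among the others (median -0.38). The study's lists rest on Cuffdiff, another test with other thresholds, so these counts are not matched to them. For α-smooth muscle actin the study also measured protein, which was similar between genotypes at first and lower in β8ITG-cKO LCs later. RNA at 24 h does not measure that.

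The size of this difference varied with the WT 24 h library. The median SD of the members on the log2 scale was 0.48 in WT 24 h (0.24 over all genes) and 0.13 in β8ITG-cKO 24 h (0.16 over all genes). WT 24 h replicate 2 was the highest of its group for 30 of 34 members (44.3% of all genes), and replicate 3 was the lowest for 27 (48.3%). Set against replicate 1 alone, the median difference of the β8ITG-cKO mean was -0.47 (all genes 0), against replicate 2 alone it was -0.86 (all genes -0.01), and against replicate 3 alone it was 0.02 (all genes 0.14). For 31 members each, replicates 1 and 2 exceeded all 3 β8ITG-cKO libraries (32.8% and 37.5% of all genes), and for 10 replicate 3 did (20.9%). Replicate 3 lay below all 3 for 12 members (48.0% of all genes), and replicates 1 and 2 for 2 and 1 (34.2% and 33.8%). Without replicate 3, 7 members were lower and 1 higher (median -0.68), among them Tagln2 (-0.85), Tpm1 (-1.01), Tpm4 (-0.88) and Actn1 (-0.68), and 1108 genes in all were called in place of 966. Without replicate 2 none was called (median -0.23, with 650 genes called), and none without any 1 of the β8ITG-cKO 24 h libraries. Photoreceptor genes, all 10 of them higher in β8ITG-cKO 24 h (median 2.89), moved with this comparison. Cdh1 of the lens epithelial list (-0.92, adjusted p = 0.00982) and Pmel of the pigment cell list (-1.18, adjusted p = 0.0129) were lower there without overlap. Each was the only call in its list. Mab21l1, also lens epithelial, lay higher without overlap (0.55, adjusted p = 0.125), and Mlana, also of pigment cells, differed by 0.03 (adjusted p = 0.978). Of 4 neutrophil genes tested, 3 lay lower without overlap (9.0% of all genes), and none was called (median -0.93). The part of these cells in the members' difference was not tested.

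**Figure D3:**
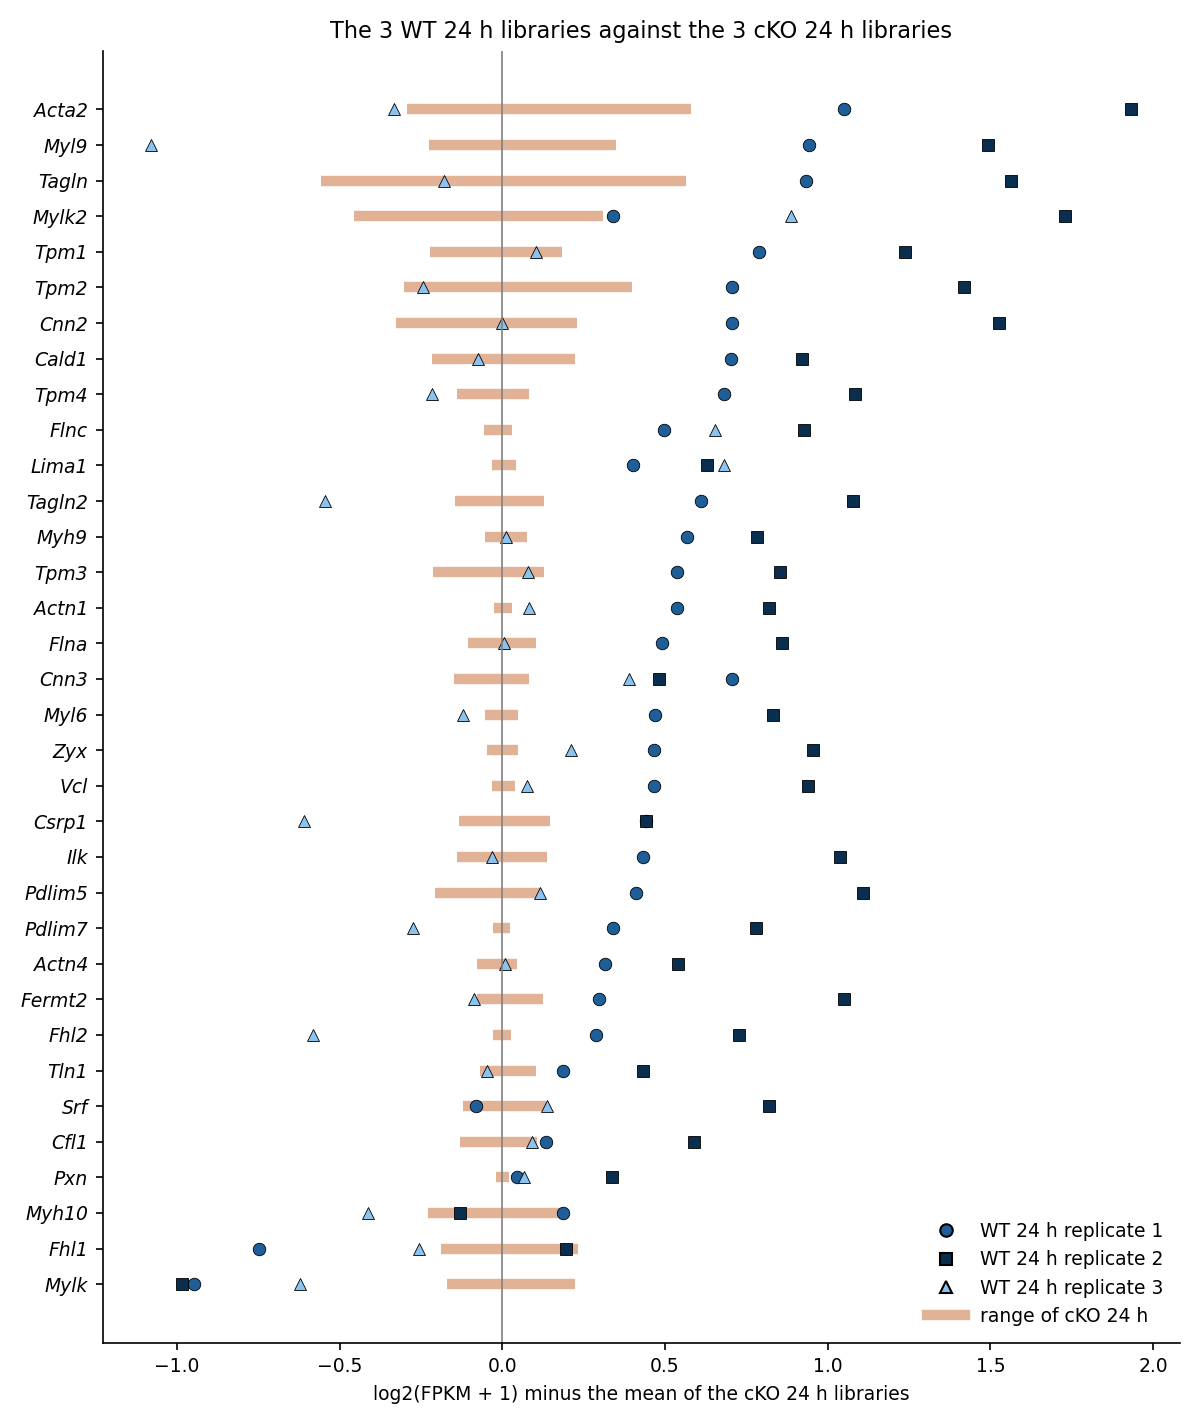
Log2 difference of each WT 24 h library from the mean of the β8ITG-cKO 24 h libraries for the tested members, with bars for the range of the β8ITG-cKO libraries. Replicates 1 and 2 sit above the bars for 31 members each, while replicate 3 sits above them for 10 and below them for 12.

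At 0 h, 3 of 32 members tested were higher in β8ITG-cKO LCs and 2 were lower, while 4.18% of 14708 genes were higher and 2.75% lower. The members' median difference was -0.07, against 0.02 for all genes. Tpm2 was 2.19-fold higher (1.04 ± 0.17, adjusted p = 0.0171), Lima1 was higher by 0.51 ± 0.09 (adjusted p = 0.0244) and Actn1 by 0.41 ± 0.09 (adjusted p = 0.0368). Tagln was 4.02-fold lower (-1.01 ± 0.18, adjusted p = 0.0206) and Flnc 4.15-fold lower (-1.61 ± 0.31, adjusted p = 0.0259). Cell type markers moved with this comparison. All 3 red blood cell genes were called lower in β8ITG-cKO LCs (median -2.35). All 5 pigment cell genes had lower means there (median -1.13), 3 of them without overlap, and none was called. Foxe3 (0.89, adjusted p = 0.0278), Cdh1 (0.68, adjusted p = 0.0116) and Mab21l1 (0.97, adjusted p = 0.00383) of the lens epithelial list and Aldh3a1 (1.58, adjusted p = 0.00801) of the corneal epithelial list were higher in β8ITG-cKO LCs. Krt5, the other corneal epithelial gene tested, had a lower mean there and was not called (-0.72, adjusted p = 0.347). Aldh3a1 had a mean of 240 FPKM in WT 0 h and 734 FPKM in β8ITG-cKO 0 h. Krt12, Krt5 and Krt14 had means of 1.39 FPKM or less in both groups. Dcn, a stromal gene, was lower (2.78, 1.91 and 2.5 FPKM in WT, and 0, 0.17 and 0.11 FPKM as listed in β8ITG-cKO, adjusted p = 0.00303). Pdgfra, of the same list as Dcn, lay higher without overlap (0.61, adjusted p = 0.123). Its means were 24.8 FPKM in WT 0 h and 39.5 FPKM in β8ITG-cKO 0 h. Kera, Lum and Dpt of that list had means of 0.0651 FPKM or less in both groups. Whether the RNA of Aldh3a1 and Pdgfra came from corneal cells or from LCs was not tested. Myh11 lay lower without overlap (-1.05, adjusted p = 0.0553). Of 6 smooth muscle and mural cell genes tested, 2 lay lower without overlap, Myh11 among them, and 1 higher (Abcc9, 0.33, adjusted p = 0.299). Their part in the members' differences was not tested. With a library left out in turn, Tpm2 was called in 4 of 6 fits, Lima1, Tagln and Flnc in 2 each and Actn1 in 0 (adjusted p up to 0.151). In 1 fit over all groups, Tpm2 (adjusted p = 0.0989), Actn1 (0.147) and Tagln (0.148) were lost. None of the 32 was called without WT 0 h replicate 1 or without β8ITG-cKO 0 h replicate 3, and 1 without β8ITG-cKO 0 h replicate 1 or 2.

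Whether the change over time itself differed between genotypes was tested as an interaction in 1 fit of all 12 libraries. Of 34 members, 1 changed further upward in β8ITG-cKO LCs (Mylk, by 1.67 ± 0.43, adjusted p = 0.0323) and 3 changed less or downward (Lima1, Actn1 and Tpm2), while the interaction was positive for 6.83% of 15262 genes and negative for 2.56%. Lima1 had the smallest p (-1.08 ± 0.14, adjusted p = 0.00332) and passed in every alternative run, with adjusted p between 0.00222 and 0.0139. Actn1 rose less in β8ITG-cKO LCs (-0.89 ± 0.22, adjusted p = 0.0264), and so did Tpm2 (-1.66 ± 0.48, adjusted p = 0.0497), while for Acta2 (-0.58, adjusted p = 0.628), Flnc (0.92, adjusted p = 0.148) and Myh9 (-0.74, adjusted p = 0.0718) no difference in the change was called. Flnc was called, however, without WT 0 h replicate 2 (1.25, adjusted p = 0.0205). Over the 34 the median was -0.39 (all genes 0), and it was -0.10 without WT 24 h replicate 2 (all genes 0.05) and -0.62 without replicate 3 (all genes -0.04). On rescaling, 7 were called, with Myh9, Cnn3 and Tln1 added. With each of the 12 libraries left out in turn, Actn1 was called 5 times (adjusted p up to 0.0673), Mylk 2 times (up to 0.075) and Tpm2 1 time (up to 0.108), each with the same direction. Without WT 24 h replicate 3, 13 members were called in place of 4, and over all genes 1921 in place of 1433.

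**Figure D4:**
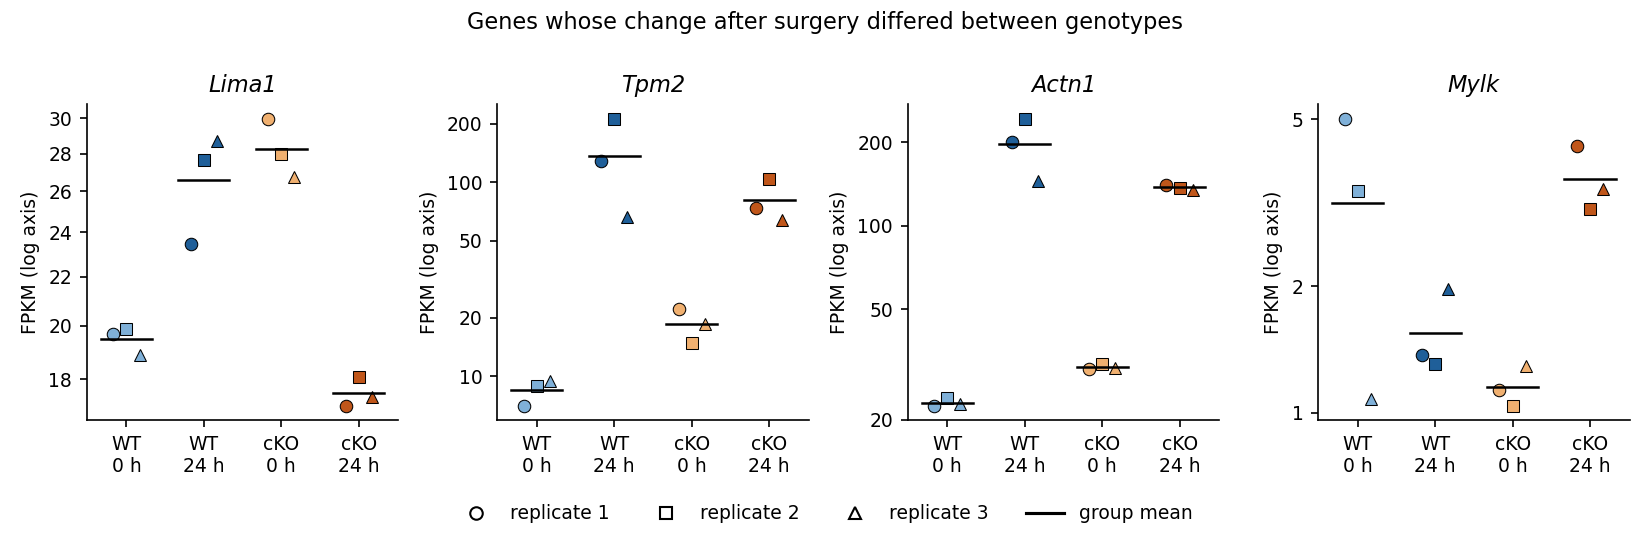
FPKM of Lima1, Tpm2, Actn1 and Mylk in each library at both times, for WT and β8ITG-cKO LCs, with lines through the group means. The group means of the genotypes changed order between the times for all 4, and Tpm2 and Actn1 rose in both genotypes.

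Within protein families, the rises were uneven, a measure that was chosen after the data were seen. Acta2 made up 6.42%, 5.92% and 5.34% of the FPKM of 6 actin genes in WT 0 h and 15%, 19.4% and 10.4% in WT 24 h. In β8ITG-cKO LCs its share went from 4.72% ± 1.44 (SD, n = 3) to 11% ± 2.69. The cytoplasmic actin gene Actb remained by far the larger, at a mean of 573 FPKM in WT 0 h and 2190 FPKM in WT 24 h (1.85, adjusted p = 0.0058), and Actg1 rose by 1.67 (adjusted p = 0.00659). The share of Actn1 among 4 α-actinins went from 29.6% ± 1.39 to 61.4% ± 1.75 in WT, and from 37.6% ± 1.11 to 58.2% ± 1.62 in β8ITG-cKO LCs. Tpm2 went from 4.35% ± 0.953 to 16.7% ± 2.85 of the 4 tropomyosins in WT, and from 8.77% ± 0.821 to 16.4% ± 2.37 in β8ITG-cKO LCs. Myh9 went from 64.0% ± 4.18 to 91.5% ± 1.74 of 4 myosin II heavy chain genes in WT, and from 66.3% ± 0.894 to 88.0% ± 1.11 in β8ITG-cKO LCs. Each of these 4 shares was higher at 24 h in 3 of 3 libraries. In 3 further families, Tagln made up 18.6% of its family in WT 0 h and 40.4% in WT 24 h, and 4.94% and 32.9% in β8ITG-cKO LCs. The share of Cnn3 was lower at 24 h in both genotypes without overlap (98.1% and 81.6% in WT, 98.4% and 84.5% in β8ITG-cKO). That of Flna among the filamins was lower without overlap in β8ITG-cKO LCs (59.3% and 48.9%), and overlapped in WT (50.9% and 46.8%). Exact two-sided permutation tests of 3 against 3 cannot give a p below 0.1. The shares without overlap between times had that p, which was 0.156 after Benjamini-Hochberg adjustment over the 28 tests made.

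**Figure D5:**
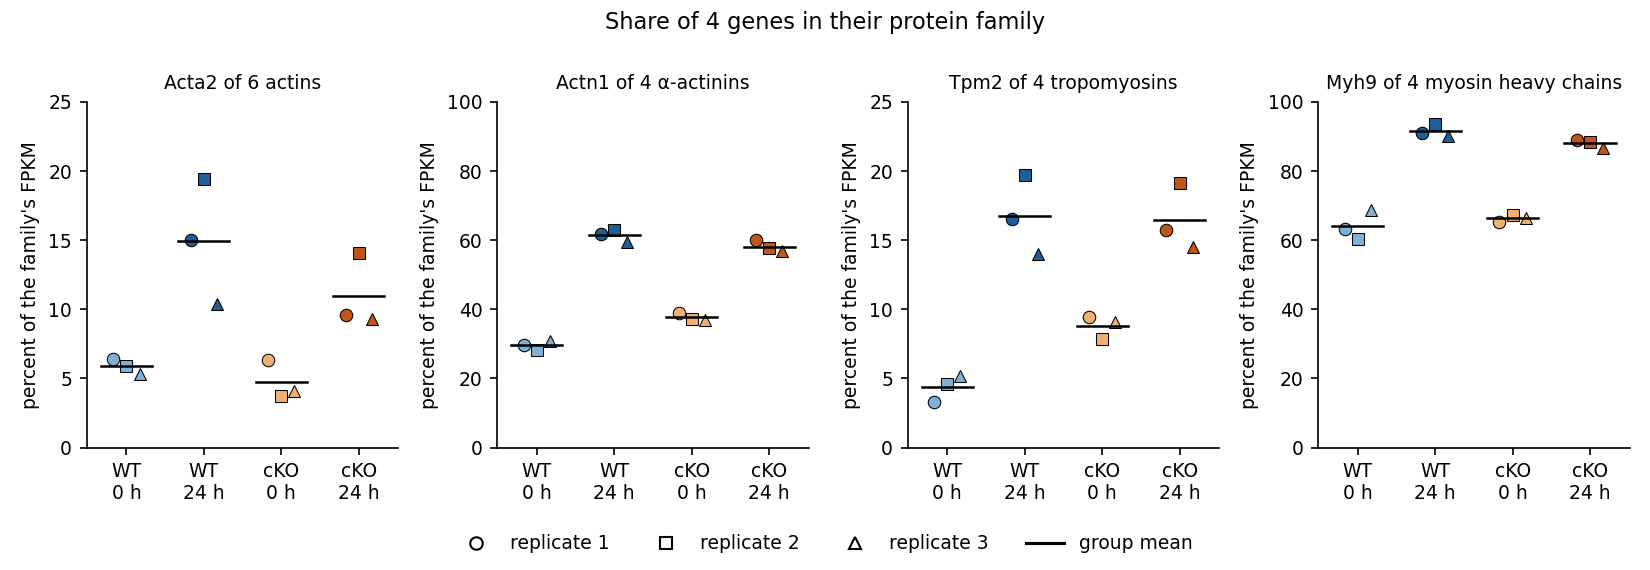
Percent of the summed FPKM of its family held by Acta2 (of 6 actins), Actn1 (of 4 α-actinins), Tpm2 (of 4 tropomyosins) and Myh9 (of 4 myosin heavy chains) in each library, by group. Myh9 reached 91.5% ± 1.74 in WT 24 h, and Acta2 went from 5.89% ± 0.543 in WT 0 h to 14.9% ± 4.52 in WT 24 h.

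Close relatives of the members that are outside the list were counted in the same fits. Of 18 relatives tested in WT, 7 rose and 5 fell (all genes 20.9% and 8.81%), with a median of 0.01 (all genes 0.16). Of 19 in β8ITG-cKO LCs, 10 rose and 6 fell (all genes 35.4% and 10.7%), with a median of 0.55 (all genes 0.23). Those that rose in WT included the light chain gene Myl12a (1.37, adjusted p = 0.0105), whereas its neighbour Myl12b fell by 0.68 (adjusted p = 0.017) in WT. At 24 h, Tagln3 (2.05, adjusted p = 0.0104) and Pdlim3 (1.27, adjusted p = 0.0499) were higher in β8ITG-cKO than in WT LCs. Among the WT 0 h libraries both were highest in replicate 2 (3.43 and 6.66 FPKM), so they were high where the photoreceptor sums were high, and the part of photoreceptor RNA was not tested.

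The rest of the pathway was described from 3 further lists, whose counts stand beside the 20.9% of all genes that rose and 8.81% that fell in WT, and the 35.4% and 10.7% in β8ITG-cKO LCs. Among partners of SRF, 1 of 5 rose in WT, near the share of all genes, namely the ternary complex factor gene Elk3 (1.60, adjusted p = 0.00183), and 3 of 5 in β8ITG-cKO LCs. Among adaptors of adhesions, 12 of 21 rose and 1 fell in WT, led by Tgfb1i1, which encodes the paxillin relative Hic-5 (2.68, adjusted p = 0.00205), and 13 rose and 2 fell in β8ITG-cKO LCs. Of genes for actin assembly, 13 of 23 rose and 1 fell in WT, with the Arp2/3 subunit gene Arpc1b (2.44, adjusted p = 0.000593) and the monomer binders Tmsb10 and Pfn1 among them, and 15 rose and 3 fell in β8ITG-cKO LCs. Between genotypes at 24 h these lists held 1 call, the severing protein gene Gsn (-0.57, adjusted p = 0.0428). At 0 h, 4 of 21 adaptors of adhesions were lower in β8ITG-cKO LCs (2.75% of all genes). The interaction was negative for 3 of 23 genes for actin assembly (2.56% of all genes) and positive for 1 of 21 adaptors (6.83%).

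Markers of other contractile cells were measured beside the members. The summed FPKM of 10 smooth muscle and mural cell genes was 11.3, 7.82 and 7.63 in WT 0 h, 13.7, 16.9 and 12.5 in WT 24 h, 6.44, 6.5 and 7.14 in β8ITG-cKO 0 h, and 16.6, 16.9 and 16.1 in β8ITG-cKO 24 h. Smoothelin (Smtn) was the most abundant of them in each library, and it rose by 1.46 in WT (adjusted p = 0.00537) and 1.67 in β8ITG-cKO LCs (adjusted p = 0.000243). Over time 1 of 5 tested rose in WT (20.9% of all genes), and 3 of 6 rose and 1 fell in β8ITG-cKO LCs (35.4% and 10.7%). Myh11, the heavy chain that defines smooth muscle, was at 3.37, 1.91 and 1.03 FPKM in WT 0 h, then 0.82, 2.33 and 1.16 FPKM in WT 24 h (-0.33, adjusted p = 0.479). Its β8ITG-cKO values were 0.46, 0.34 and 0.47 at 0 h, then 0.81, 1.79 and 1.01 FPKM at 24 h, a rise of 0.61 without overlap (2.83-fold, adjusted p = 0.0289). Synpo2, an actin-binding gene of the same list, also rose there (0.69, adjusted p = 0.00389) and was higher than in WT at 24 h (0.94, adjusted p = 0.0375). The part of smooth muscle or mural cells in the members' values was not tested. The master regulator Myocd was at 0.25 FPKM or less in each library. The sum of 10 skeletal muscle genes was 2.24 FPKM or less in each library.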

How the data were processed

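LCs of 12 libraries were prepared by the authors with a stranded low-input total RNA kit and sequenced. The submitters' processing notes name FastQC, cutadapt 1.12, TopHat2 2.1.0 and Cuffdiff 2.2.1, with the builds mm10 and GRCm38.p5. The deposited values are FPKM per gene and library in 4 tables, and those of a library were identical wherever it appeared. The tables also hold Cuffdiff's fold changes, p-values and q values, which were not used, and 16 columns of group-level values, which were not used either. The depth of each library is unknown, as no read counts were analysed here. Steps between low FPKM gave relative depths of 0.88 to 1.1, and summed FPKM ran from 446531 to 740140, with 36.0% to 49.6% of it in the 10 highest genes.

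Each pair of groups was fitted with limma 3.58.1 (limma-trend, eBayes) in R 4.3.3 on log2(FPKM + 1), leaving out genes whose mean was under 0.5 FPKM, with Benjamini-Hochberg adjustment over all genes tested and a threshold of 0.05. Log2 changes are on that scale, which understates the change of low genes. p-values measure the spread between these libraries. Comparisons over time and between genotypes share libraries. The rest used Python 3.11.15 with numpy 2.4.6, pandas 2.3.3, matplotlib 3.10.9 and scipy 1.17.1. In simulated WT data, 92.0% of genes changed 4-fold and 55.0% of those changed 2-fold were called among 15153 and 15166 genes, and with no gene changed 0 of 15157 were called. The simulated noise was independent between libraries, with a single SD per gene pooled over the groups. Changes were placed only in genes with a mean above 2 on the log2(FPKM + 1) scale. These shares do not carry over to the members, whose spread differed between groups and whose WT 24 h libraries shifted together.

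The members and all lists (3 pathway lists, relatives of the members and 11 cell type marker lists) were chosen with earlier results of these data known. All members were named, with values per library for the 2 of each role with the largest change in WT, for Acta2, and for every member called between genotypes or in the interaction. Alternatives covered the pseudocount, the filter, a block for the replicate number, rescaling to a common median (set on genes averaging 2 FPKM or more), the study's criteria, each library left out and a joint fit of the 4 groups. The single WT 24 h libraries and the family shares were added after the data were seen. Promoter windows came from RefSeq, and gene positions are those of the files. The values of some single genes and 1 further pathway list are not reported here.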

Additional observations from a re-analysis of the deposited data

Results flagged for a closer look

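The change from 0 h to 24 h PCS differed between the genotypes by the test of the interaction for 4 of 34 members, 1 positive and 3 negative. Over all 15262 genes tested, 6.83% were positive and 2.56% negative. The difference (β8ITG-cKO change minus WT change, log2) was -0.89 for Actn1, 1.67 for Mylk, -1.66 for Tpm2 and -1.08 for Lima1. For Lima1, WT rose by 0.43 and β8ITG-cKO LCs fell by 0.66, and this difference was called in each alternative run, whereas the WT rise on its own was called in 0 of 6 fits with a library left out (adjusted p up to 0.139). With each library left out in turn, Actn1, Mylk and Tpm2 were called in 5, 2 and 1 of 12 fits. The WT 0 h libraries at 5.02 and 3.38 FPKM of Mylk lay well above the third at 1.08 FPKM. In the same libraries Myh11 of the smooth muscle list had the same order (3.37, 1.91 and 1.03 FPKM). Smtn of that list did not (4.68, 1.96 and 3.52 FPKM). Actn1 and Tpm2 had higher means in β8ITG-cKO LCs at 0 h, called in 0 and 4 of 6 such fits. The 10 photoreceptor genes also had a positive interaction (median 3.56). Of 6 smooth muscle and mural cell genes tested, 1 was called, also positive (Synpo2, 1.17, adjusted p = 0.0127). Myh11 was not called (0.93, adjusted p = 0.181). The part of either list in the members' differences was not tested.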

How the results depend on the processing

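No called member turned its direction under any alternative. The members called in WT over time numbered 19 to 27 with a library left out and in β8ITG-cKO LCs 28 to 30, or 17 with the study's criteria. Between genotypes at 24 h, 3 members became 1 without the filter and with the study's criteria, 0 with the replicate number as a block and 0 to 8 with a library left out. At 0 h, 5 became 2 without the filter, in 1 fit over all groups and with the study's criteria, 1 with the block and 0 to 6 with a library left out. In the interaction, 4 became 2 without the filter, 7 on rescaling and 1 to 13 with a library left out. Over all genes, 4500 calls in WT over time became 2159 with the criteria and 2512 to 5087 with a library left out, and 7030 in β8ITG-cKO LCs became 2294 with the criteria. The 966 calls between genotypes at 24 h became 1538 in 1 fit, 562 with the criteria and 439 to 1108 with a library left out. The 1020 at 0 h became 254 without the filter, 269 with the block, 371 with the criteria and 136 to 756 with a library left out. The 1433 of the interaction became 688 to 1921 with a library left out. Fewer libraries or a stricter call account for some of these by construction, and the cause of the others was not tested. With the block 25 members were called in WT, 24 of them shared (Lima1 lost, Csrp1 gained), 30 in β8ITG-cKO LCs and 3 in the interaction (Tpm2 lost). Correlations of same-numbered libraries, as deviations from their group means, ran from -0.25 to 0.1. Those of differently numbered libraries ran from -0.23 to 0.18. With 3 libraries in a group, such deviations constrain each other, so this cannot show whether same-numbered libraries shared a batch. Counting error cannot be stated without counts.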

Other observations

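Markers of the lens epithelium and of other cells moved as follows. Over time, 20.9% of all genes rose and 8.81% fell in WT, and 35.4% rose and 10.7% fell in β8ITG-cKO LCs. Of 8 lens fiber genes tested, 7 fell in WT and 8 fell in β8ITG-cKO LCs over 24 h, with Crygs the most abundant in each library. Of 5 lens epithelial genes, 1 rose and 2 fell in WT, and 4 fell in β8ITG-cKO LCs. Cdh1, the E-cadherin gene, moved in both directions, by 0.44 in WT (adjusted p = 0.0474) and -1.15 in β8ITG-cKO LCs (adjusted p = 0.000119), with an interaction of -1.59 (adjusted p = 0.00143). Of 7 neutrophil genes, Ly6g, Mpo and Elane were listed at 0 in all 12 libraries, and the 4 tested rose in both genotypes, from a summed 0.434 to 0.714 FPKM at 0 h to 44.8 to 62.2 FPKM at 24 h in WT, and from 0.459 to 1.41 FPKM to 12 to 33.8 FPKM in β8ITG-cKO LCs. None of these 4 was called between genotypes at 24 h, where 3 had an unadjusted p under 0.05, but S100a9 was called in the interaction (-1.57, adjusted p = 0.0416).

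Of 6 macrophage genes tested, 1 rose in WT and 2 in β8ITG-cKO LCs, near the 20.9% and 35.4% of all genes that rose. At 0 h the 3 red blood cell genes were all lower in the β8ITG-cKO (2.75% of all genes), where all 3 then rose by 24 h. None of 5 pigment cell genes was called over time or at 0 h, where all 5 had lower means in the β8ITG-cKO. At 24 h the β8ITG-cKO was lower for 1 of 4 (0.644% of all genes). Of 3 corneal stroma genes tested, 2 fell in WT, and of 2 in β8ITG-cKO LCs, 1 rose and 1 fell. No corneal epithelial gene of 4 was called in WT and 1 of 1 fell in β8ITG-cKO LCs. Aldh3a1 was the highest gene of the corneal epithelial list, and Pdgfra of the stromal list, in each library. Whether their RNA came from corneal cells was not tested. A single skeletal muscle gene was tested in WT, and it fell. Over time, 1 of 10 photoreceptor genes fell in WT and all 10 rose in β8ITG-cKO LCs. The part of these cells in the members' values was not tested.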
